A study of Mus musculus with 4 samples.

Results

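The genes described here are 6 fibroblast growth factor (FGF) ligands, Fgf1, Fgf2, Fgf7, Fgf10, Fgf18 and Fgf21, and the 4 FGF receptor genes Fgfr1 to Fgfr4, measured in stromal cells of the mouse thymus. They were taken by symbol from the count matrices, in which each of the 10 symbols had 1 row among 32285 genes in every library. No threshold on a measured value defined the set. Over all kept cells the 10 genes differed widely in abundance, from 197 UMIs (unique molecular identifiers, each standing for 1 captured RNA molecule) for Fgfr4 to 19466 for Fgfr2.

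FGFs are secreted proteins that bind receptor tyrosine kinases together with heparan sulfate or, for the endocrine members, with a Klotho protein. Binding recruits the docking protein FRS2 and switches on the RAS to ERK, PI3K and PLCγ branches, and the same signal induces its own inhibitors. In the thymus, FGF7 and FGF10 made by mesenchyme act on epithelial cells that carry the IIIb splice form of FGFR2, and FGF7, also called keratinocyte growth factor, is known as a regenerative factor for thymic epithelium. FGF21 is an endocrine factor that needs the co-receptor β-Klotho, encoded by Klb.

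The libraries are 3′ single-cell RNA-seq libraries made in droplets from CD45-negative thymic cells from C57BL/6 mice aged 6 months. The control group, labelled Foxn1LacZ mock with a wild-type genotype, is written WT, and the mutant group, labelled homozygous LacZ, is written Z/Z. Each group has 2 libraries, called WT 1, WT 2, Z/Z 1 and Z/Z 2. Foxn1 encodes the transcription factor that controls thymic epithelial cell (TEC) differentiation, and the LacZ allele lowers its activity, so the comparison asks how the stroma differs when FOXN1 is reduced. The thymi of several mice were pooled for a preparation, so p-values measure the spread between libraries and not between single animals. The labels give the sex both as female and as male.

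Depth and cell numbers differed between libraries. Between 1192 and 5558 barcodes per library were called as cells, holding 8468086 to 50705511 UMIs, and 456 (WT 2) to 4455 (Z/Z 1) cells were kept. TECs, with 105 to 1957 cells per library, fibroblasts, with 189 to 1155, and endothelial cells, with 25 to 697, were numerous enough in every library to be tested. Median UMIs per TEC were 16692 and 17836 for the WT libraries against 6747 and 7024 for Z/Z. The WT libraries had 202 called barcodes in common and the Z/Z libraries 249, whereas a WT and a Z/Z library had at most 6. In all 202 shared WT barcodes and in 241 of the 249 in Z/Z, 1 copy had over 5 times as many UMIs as the other. The markers of each lineage were present in its own cells, with the 6 TEC markers summing to 7591 to 11010 CPM (UMIs of a gene scaled to a common total) in TECs, the 6 fibroblast markers to 12930 to 16880 CPM in fibroblasts and the 6 endothelial markers to 3600 to 5475 CPM in endothelial cells. Foxn1 stood at 85.7 and 120 CPM in the WT TEC sums and at 54.3 and 71.6 CPM in Z/Z, a difference of −0.70 on the log2 scale (SE 0.23) with an adjusted p of 0.0835 by edgeR, not past the threshold. Where the LacZ cassette lies in the gene is not stated in the sources used here, so 3′ tags need not report on the altered allele.

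The 10 genes lie on 8 chromosomes of GRCm38. Fgf21 is the shortest, at chromosome 7, 45613886 to 45615490 on the minus strand, with 1 annotated transcript and no overlapping gene. Fgf7 lies at chromosome 2, 126034658 to 126091185, and Fgf10 at chromosome 13, 118669791 to 118792115, both on the plus strand. Fgf7 is overlapped on the opposite strand by Fam227b, Fgf10 by Gm16263, Fgf2 by Nudt6 and Fgf2os, Fgfr1 by Gm16159 and Fgf1 by AC110730.1. Whether counting used the strand is not stated in the sources used here, so reads of such pairs may not be told apart. The gene model of Fgfr2, on chromosome 7, spans 2.96 Mb because of 1 of its 27 transcripts, while the others end within 104 kb. That long model holds 22 other counted genes on the same strand and overlaps 26 on the opposite strand, so some Fgfr2 UMIs may belong to neighbours.

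The promoters of the 3 ligands on which the results below turn are printed here, from 250 bases before to 50 after the annotated start, from RefSeq on GRCm38.p6. Of the 10 genes, 8 had an entry, and Fgf1 and Fgfr1 had none. Capitals mark matches, on either strand, to 3 short motifs: GACGC, the core bound by FOXN1, TGATGNAA, an amino acid response element, and TATAAA, the TATA box. The Fgf21 window, chr7:45615441-45615740 on the minus strand, held 1 match to each. The Fgf7 window, chr2:126034408-126034707, and the Fgf10 window, chr13:118714449-118714748, both on the plus strand, held none of them. The Fgf10 window lies inside the GENCODE span given above, so the RefSeq start differs from the outermost start of that span, which was not searched.
Fgf21: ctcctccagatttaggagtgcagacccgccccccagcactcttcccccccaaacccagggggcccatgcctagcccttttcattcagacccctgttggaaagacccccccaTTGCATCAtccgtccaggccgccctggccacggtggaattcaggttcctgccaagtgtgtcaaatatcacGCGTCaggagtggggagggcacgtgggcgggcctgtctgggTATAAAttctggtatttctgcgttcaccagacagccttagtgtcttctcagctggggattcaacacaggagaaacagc
Fgf7: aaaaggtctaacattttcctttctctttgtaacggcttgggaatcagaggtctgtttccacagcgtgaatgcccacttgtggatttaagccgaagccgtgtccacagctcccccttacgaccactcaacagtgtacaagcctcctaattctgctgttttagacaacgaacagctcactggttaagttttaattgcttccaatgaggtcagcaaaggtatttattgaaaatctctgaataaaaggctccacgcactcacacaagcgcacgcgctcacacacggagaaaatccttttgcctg
Fgf10: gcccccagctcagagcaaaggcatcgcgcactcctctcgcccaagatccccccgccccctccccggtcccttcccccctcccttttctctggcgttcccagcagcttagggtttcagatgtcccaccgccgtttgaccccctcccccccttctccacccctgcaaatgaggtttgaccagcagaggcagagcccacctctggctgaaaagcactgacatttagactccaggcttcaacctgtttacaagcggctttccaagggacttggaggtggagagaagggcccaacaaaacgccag
Among 32851 promoter windows of the same length, 27.2% held GACGC, 3.97% held TGATGNAA and 13.6% held TATAAA. The first of these also occurred in the windows of Fgf2, Fgf18 and Fgfr3. A match is a description of the letters and not a binding site, and the absence of one says only that these letters are not in the window.

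The ligands fell into 3 source patterns across cell types. Levels are CPM of the UMIs summed over the cells of a type in 1 library, given for libraries with at least 20 such cells. They are described by their range over libraries, with no test, and cell types are named from markers or, where markers did not name them, by their leading genes. Cell types with 20 cells in fewer than 2 libraries, such as mesothelial cells, were not ranked. The genes compared here had been left out when cells were clustered. Levels are compared between cell types for 1 gene and not between genes.

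**Figure D1:**
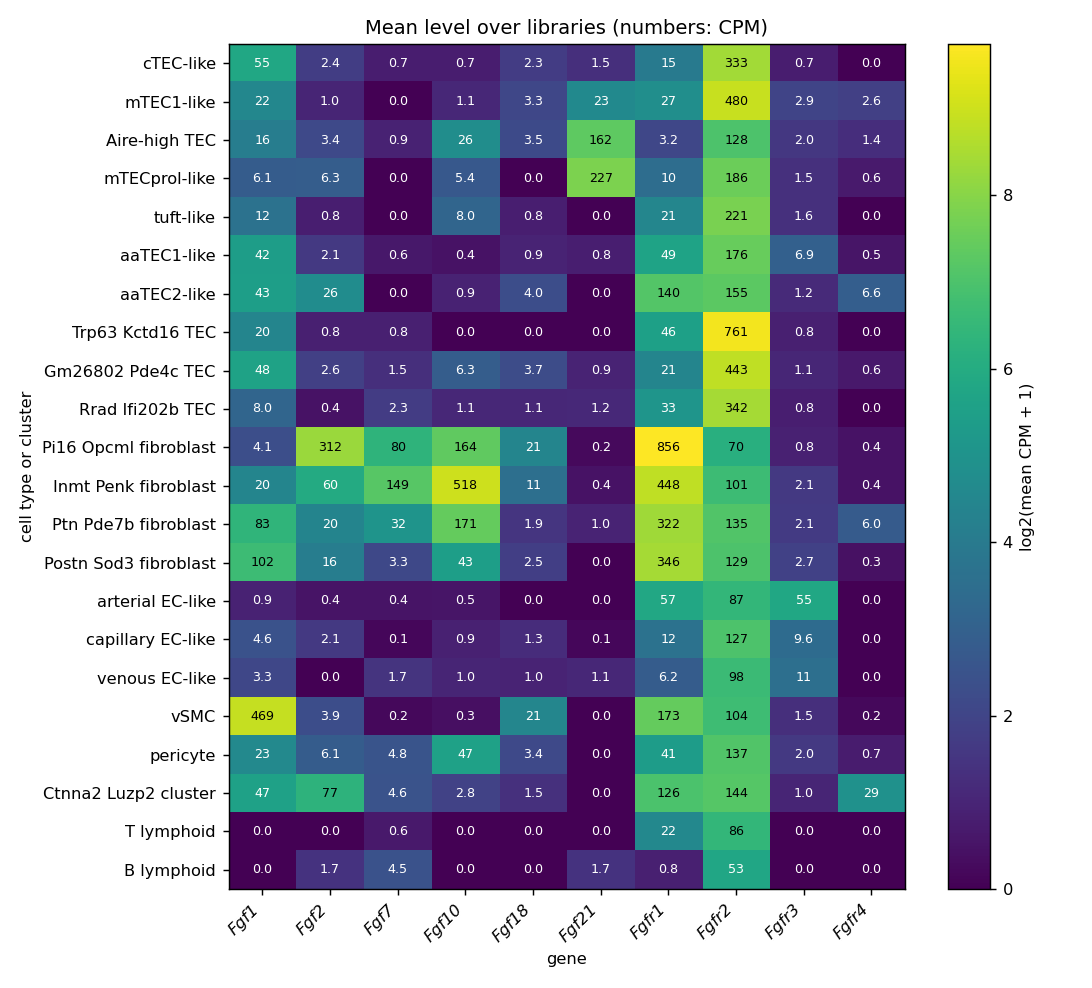
Heat map of the 10 genes (columns) in 22 cell types or clusters (rows). Numbers are the mean CPM over libraries with at least 20 cells of that type, and colour is log2(mean CPM + 1); Fgf21 is high in 2 TEC classes, Fgf7 and Fgf10 in fibroblasts, Fgf1 in vSMCs and Fgfr2 in TECs.

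Fgf7 and Fgf10 were fibroblast genes. Fibroblasts held 2421 of the 2489 Fgf7 UMIs and 7619 of the 8019 Fgf10 UMIs. Fgf10 was highest in the fibroblast cluster led by Inmt and Penk, at 403 to 597 CPM, above its ranges in the Ptn Pde7b cluster (134 to 221 CPM) and the Pi16 Opcml cluster (103 to 226 CPM), which overlapped. Fgf7 was also highest in the Inmt Penk cluster, at 103 to 190 CPM, but this range overlapped that of the Pi16 Opcml cluster, 40.4 to 131 CPM. In the Ptn Pde7b cluster Fgf7 stood at 28.9 to 36.8 CPM, below both. Outside fibroblasts, Fgf10 reached 39.3 and 54.8 CPM in the pericytes of Z/Z and 13.0 to 36.6 CPM in Aire-high TECs, while Fgf7 stood at 4.25 CPM or less in every TEC and endothelial class. Empty-droplet RNA held 13.7 and 9.39 CPM of Fgf10 in WT and 39.7 and 33.9 CPM in Z/Z. The pericytes of Z/Z 1 and the Aire-high TECs of WT 1, Z/Z 1 and Z/Z 2 did not exceed the value of their own library. An empty-droplet level is not the amount that such RNA adds to a cell, which was not measured. Endothelial cells of Z/Z 1 and Z/Z 2 had 1.16 and 1.67 CPM of Fgf10.

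Fgf21 came almost wholly from TECs, which held 2193 of its 2221 UMIs, and the UMIs lay in 295 cells of the 4 libraries. Proliferating medullary TECs (mTECprol-like) had 242 CPM in WT 1 and 213 CPM in Z/Z 1, and Aire-high TECs had 136 to 187 CPM. The mTECprol-like cells of WT 2 and Z/Z 2, only 4 and 19 in number, had 199 and 178 CPM, and with them the ranges of these classes overlapped. The mTEC1-like class followed with 7.72 to 31.7 CPM, and every other TEC class or cluster stood at 4.78 CPM or less in each library. Aire-high TECs are medullary cells that express the autoimmune regulator Aire, which drives the expression of tissue-restricted antigens. Expression was uneven among these cells: in WT 1 the 3 highest TECs held 386 of 1290 Fgf21 UMIs, and 1 of them held 182.

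Fgf1, Fgf2 and Fgf18 had their highest levels in other mesenchymal cells. Fgf1, which binds all FGF receptors, was highest in vascular smooth muscle cells (vSMCs) at 372 to 522 CPM, far above the Postn Sod3 fibroblasts (79.6 to 124 CPM) and the Ptn Pde7b fibroblasts (51.2 to 116 CPM), whose ranges overlapped. Mesothelial cells, not ranked, had 203 CPM in Z/Z 2, from 27 cells. By UMIs, vSMCs held 2036 of the 5455 of Fgf1, TECs 1777 and fibroblasts 1375. Among TECs the mean of Fgf1 was highest in cTEC-like cells, the cortical class, at 50.7 to 59.7 CPM, a range that lay within the 15.0 to 110 CPM of the unnamed Gm26802 Pde4c cluster. Fgf2, a broadly acting FGF known for its effect on fibroblasts and vessels, reached 253 to 372 CPM in Pi16 Opcml fibroblasts, and its next highest ranges were 54.3 to 101 CPM in the unnamed Ctnna2 Luzp2 cluster of Z/Z and 46.4 to 96.1 CPM in Inmt Penk fibroblasts. Fgf18 was low everywhere, with overlapping maxima of 16.6 to 25.9 CPM in vSMCs and 13.5 to 24.0 CPM in Pi16 Opcml fibroblasts.

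The receptors divided the stroma in another way. Fgfr2 was the epithelial receptor gene: the TEC cluster led by Trp63 and Kctd16 had 671 and 851 CPM in Z/Z, mTEC1-like cells 446 to 513 CPM and cTEC-like cells 301 to 373 CPM. This is not a full order of TEC clusters. The unnamed Gm26802 Pde4c cluster, not listed, held 24.3% and 19.4% of the Fgfr2 UMIs of Z/Z TECs. aaTEC1-like cells, at 197 and 155 CPM in Z/Z, and aaTEC2-like cells, at 161 and 150 CPM, were lower. Aire-high TECs had 107 to 166 CPM, a range that overlapped those of aaTEC1-like and aaTEC2-like cells. It also overlapped those of Ptn Pde7b fibroblasts (121 to 145 CPM) and capillary endothelial cells (99.1 to 172 CPM). Lymphoid cells, which are not known to use this receptor, still had 33.3 to 110 CPM, and the RNA of empty droplets held 106 and 78.1 CPM in WT and 187 and 194 CPM in Z/Z. The empty-droplet values are levels within that RNA and not the amount that it adds to a cell, which was not measured. The lymphoid range overlapped those of Aire-high TECs and capillary endothelial cells. The 3′ tags do not separate the IIIb from the IIIc splice form.

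Fgfr1 was highest in fibroblasts, led by the Pi16 Opcml cluster at 720 to 955 CPM, above the Inmt Penk cluster at 414 to 513 CPM. The Ptn Pde7b cluster, at 239 to 400 CPM, lay below the Inmt Penk cluster, and the Postn Sod3 cluster, at 302 to 426 CPM, overlapped both. vSMCs followed at 157 to 198 CPM. Among TECs, aaTEC2-like cells had the highest level, 137 and 144 CPM in the Z/Z libraries, above the 20.4 to 95.5 CPM of the Gm26917 Zfp791 cluster, the next in order. Empty-droplet RNA held 74.8 and 49.9 CPM of Fgfr1 in WT and 124 and 109 CPM in Z/Z. These are levels within empty droplets and not the amount that such RNA adds to a cell. In Z/Z 1 and Z/Z 2 the Aire-high TECs had 5.63 and 0.655 CPM of Fgfr1. Fgfr3 levels were highest in endothelium, at 41.8 to 61.4 CPM in arterial cells, 58.2 CPM (WT 1) and 7.28 CPM (Z/Z 1) in the Hecw2 Lrrc3b cluster, 17.0 and 28.0 CPM in the Ccl11 Lin7a cluster of Z/Z and at most 12.3 CPM in capillary and venous cells. TECs, being more numerous, still held 20.8% to 52.1% of the Fgfr3 UMIs of a library, and endothelial cells 32.4% to 59.3%. Fgfr4, the rarest, was highest in the Ctnna2 Luzp2 cluster at 21.6 and 36.9 CPM, and stood at 0 to 12.5 CPM in Ptn Pde7b fibroblasts and at 6.19 and 7.04 CPM in aaTEC2-like cells.

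The aaTEC2-like cluster carried few epithelial transcripts. The 6 TEC markers summed to 551 and 738 CPM in its Z/Z cells, against 7591 CPM or more in all TECs, while its 6 fibroblast markers summed to 871 and 1329 CPM and its 5 vSMC markers to 1412 and 1514 CPM. It was kept among TECs because its named markers (Nos1, Pdpn, Rgs4, Ndrg2, Vim) matched the aaTEC2 list best, and values without it are given where a result turns on it. Age-associated TEC 2 (aaTEC2) is the study's name for an epithelial state with mesenchymal features.

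In TECs, Fgf21 was lower and Fgfr1 higher in Z/Z. These were the 2 of 10 genes that passed the threshold of an adjusted p of 0.05, beside 22.5% of all 18884 genes tested in TECs. CPM given with a log2 difference between genotypes carry TMM scaling, a correction of library size. Fgf21 stood at 99.4 and 88.8 CPM in the TEC sums of WT 1 and WT 2 and at 15.5 and 22.3 CPM in Z/Z 1 and Z/Z 2. Both Z/Z libraries lay below both WT libraries, as for 33.1% of all genes tested. On the log2 scale the difference was −2.32 (SE 0.23, edgeR adjusted p = 0.0078). Fgfr1 stood at 7.70 and 11.2 CPM in WT and at 58.7 and 44.4 CPM in Z/Z. Both Z/Z libraries lay above both WT libraries, as for 34.9% of all genes, and the difference was 2.51 (SE 0.28, adjusted p = 0.00809).

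**Figure D2:**
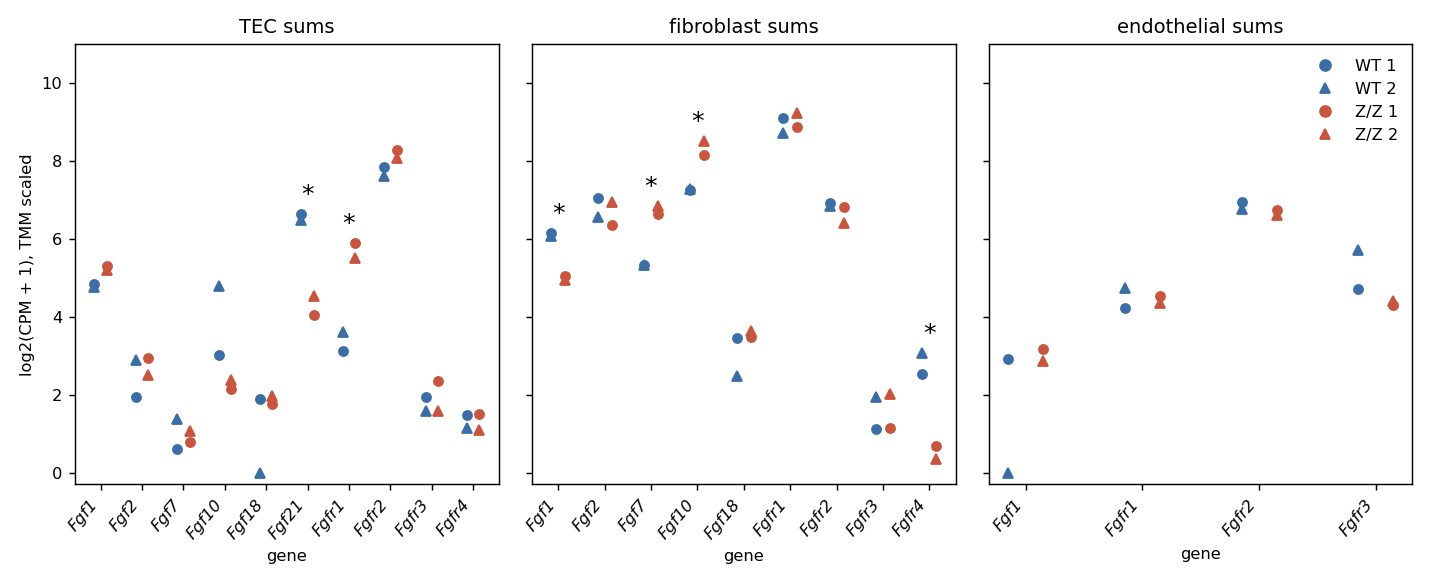
log2(CPM + 1), with TMM scaling, of each gene tested in the TEC, fibroblast and endothelial sums, 1 point per library (circles replicate 1, triangles replicate 2, blue WT, red Z/Z). Stars mark the 6 values with an adjusted p under 0.05: Fgf21 and Fgfr1 in TECs, and Fgf1, Fgf7, Fgf10 and Fgfr4 in fibroblasts.

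The makeup of the TECs differed alongside Fgf21. Aire-high cells were 45.8% and 43.8% of WT TECs but 1.84% and 3.95% of Z/Z TECs, and mTECprol-like cells were 4.47% and 3.81% against 1.02% and 1.23%. These 2 classes held 83.3% and 14.7% of the Fgf21 UMIs of WT 1. Within Aire-high cells Fgf21 stood, with TMM scaling, at 166 and 136 CPM in WT and at 194 and 167 CPM in Z/Z, with both Z/Z libraries above both WT libraries as for 22.7% of genes. Without TMM scaling the Z/Z values were 187 and 158 CPM and the groups overlapped. The difference there was 0.25 on the log2 scale (SE 0.22, adjusted p = 0.694). None of the 4 genes tested in Aire-high cells passed the threshold, nor did any at an unadjusted p of 0.05 or with DESeq2, beside 0.00849% of all genes tested in that class. In a sum over a lineage, fewer cells of a type and less RNA per cell cannot be told apart.

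The share of TECs with an Fgf21 UMI differed in the same direction. With each cell thinned to 2000 UMIs, 8.17% and 5.71% of WT TECs and 0.884% and 1.28% of Z/Z TECs had at least 1 Fgf21 UMI. Without thinning the shares were 22.4% and 22.9% against 3.07% and 4.08%. Among fibroblasts, which held 15 of the 2221 Fgf21 UMIs, thinned shares were 0 to 0.174%, at median depths of 10574 to 14851 UMIs. Within Aire-high cells 13.9% and 10.9% of WT cells had one after thinning, against 22.2% and 16.7% of Z/Z cells, and the exact binomial intervals, which cover counting error only, ran from 3.63% to 39.2% and overlapped.

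**Figure D3:**
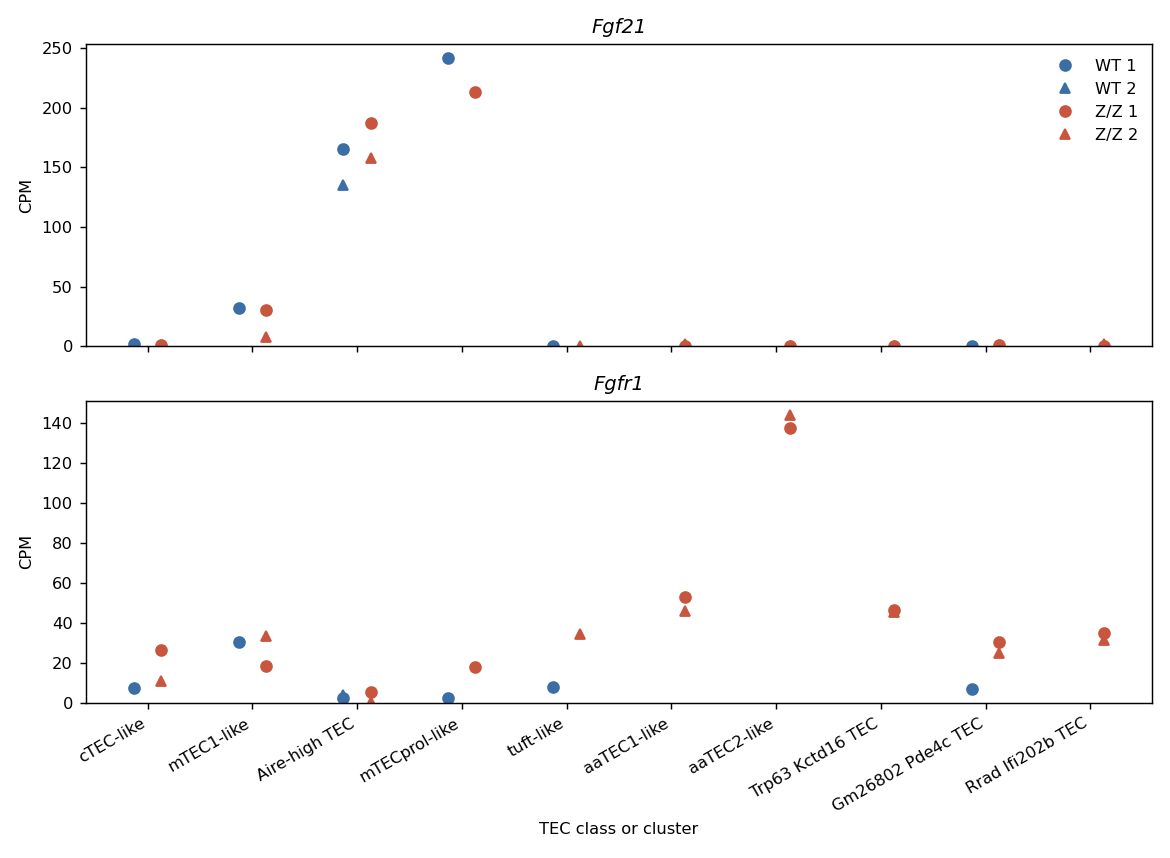
CPM of Fgf21 (top) and Fgfr1 (bottom) in 10 TEC classes or clusters, 1 point per library with at least 20 cells of the class. Fgf21 is at 136 CPM or more in Aire-high and mTECprol-like cells of both genotypes, and Fgfr1 is highest in the aaTEC2-like cells of Z/Z, at 137 and 144 CPM.

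Most Fgfr1 UMIs of Z/Z TECs lay in the age-associated classes. aaTEC2-like cells were 28.2% and 24.7% of Z/Z TECs but 2.15% and 0% of WT TECs, and held 40.0% and 42.3% of the Fgfr1 UMIs of Z/Z TECs. aaTEC1-like cells, the other such class, held 25.5% and 26.7%. With aaTEC2-like cells left out, the Fgfr1 difference was 2.03 (adjusted p = 0.0177) and that of Fgf21 −2.12 (adjusted p = 0.0103). The sum of the fibroblast markers moved with this result: the 6 markers, none at 0, summed to 134 and 109 CPM in WT TECs and to 258 and 290 CPM in Z/Z TECs. Dcn, Col3a1, Lum and Dpt were higher in both Z/Z libraries, while Pdgfra and Col1a1 overlapped. The 5 vSMC markers, none at 0, went from 182 and 93.5 CPM to 332 and 360 CPM, with Tagln at 36.7 and 16.3 against 203 and 201 CPM. Of the others, Myl9 was higher in both Z/Z libraries, Acta2 and Myh11 overlapped, and Cnn1 was lower. The 5 pericyte markers, none at 0, summed to 275 and 195 CPM in WT and 216 and 221 CPM in Z/Z, which overlapped. Rgs5 was lower in Z/Z, at 258 and 168 against 113 and 125 CPM. Notch3, at 15.4 and 24.2 against 91.4 and 88.1 CPM, was higher, as were Kcnj8, Abcc9 and Vtn at low levels. The part of these markers in the Fgfr1 difference was not tested. Fgf7, which fibroblasts make, stood at 0.539 to 1.60 CPM in the same TEC sums, with a difference of 0.08 (adjusted p = 0.948). With empty-droplet RNA subtracted, Fgfr1 and Fgf21 passed the threshold as before.

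Both calls were lost when every barcode shared by the 2 libraries of a genotype was left out, with Fgf21 at −2.69 (adjusted p = 0.0944) and Fgfr1 at 2.34 (adjusted p = 0.101). That step removed 54 of the 105 TECs of WT 2, and 1 gene of 17705 was then called. With only the smaller copy of each shared barcode left out, both calls stood, at adjusted p values of 0.00819 and 0.00853.

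The other 8 genes did not pass the threshold in TECs. Fgfr2, the receptor of FGF7 and FGF10 on epithelium, stood at 229 and 193 CPM in WT and at 309 and 270 CPM in Z/Z (log2 0.45, SE 0.16, adjusted p = 0.0932). Fgf1 stood at 27.5 and 26.0 CPM in WT and at 38.3 and 36.1 CPM in Z/Z (0.47, adjusted p = 0.102). For both genes the Z/Z libraries lay above the WT libraries. Empty-droplet RNA of both genes was also higher in Z/Z, with Fgf1 at 22.9 and 9.98 CPM in WT and at 35.5 and 43.1 CPM in Z/Z. Fgf10 stood at 7.09 and 26.8 CPM in WT and at 3.45 and 4.22 CPM in Z/Z (−2.07, SE 0.66, adjusted p = 0.0755), and in each WT library 3 cells held 79.3% and 79.1% of its TEC UMIs. For Fgf10 the outcome depended on the setting, with a range over the alternatives of −3.92 to −0.52 and adjusted p from 0.00524 to 0.772. Fgf2, Fgf7, Fgf18, Fgfr3 and Fgfr4 stood at or below 6.70 CPM in every TEC sum, with differences of −0.07 to 0.61 and overlapping groups.

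In fibroblasts, the ligands Fgf7 and Fgf10 rose in Z/Z, and Fgf1 and the receptor gene Fgfr4 fell. They were 4 of the 9 genes tested, beside 3.29% of all 13853 genes tested in fibroblasts (1.88% higher and 1.41% lower). Fgf7 stood at 39.5 and 39.5 CPM in WT and at 98.6 and 115 CPM in Z/Z, which is 1.43 on the log2 scale (SE 0.16, edgeR adjusted p = 0.00174). Fgf10 stood at 151 and 156 CPM in WT and at 282 and 363 CPM in Z/Z (1.07, SE 0.17, adjusted p = 0.0102). For both ligands the Z/Z libraries lay above the WT libraries, as for 26.3% of all genes tested. The Fgf7 call stood under all 13 alternatives, and that of Fgf10 was lost without Z/Z 2 (0.88, adjusted p = 0.104) and with cells thinned to equal depth (adjusted p = 0.0645).

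Fgf1 stood at 70.1 and 66.7 CPM in WT fibroblasts and at 32.0 and 29.9 CPM in Z/Z fibroblasts (−1.15, SE 0.16, adjusted p = 0.00589). Fgfr4 stood at 4.79 and 7.41 CPM in WT and at 0.601 and 0.279 CPM in Z/Z, from 41, 21, 7 and 2 UMIs (−3.62, SE 0.59, adjusted p = 0.0103). Both Z/Z libraries lay below both WT libraries for each gene, as for 24.5% of all genes. Without Z/Z 2 neither passed the threshold, at −1.10 (adjusted p = 0.0865) for Fgf1 and −3.26 (adjusted p = 0.0942) for Fgfr4. Fgfr1, the main receptor gene of these cells, stood at 550 and 421 CPM in WT and at 468 and 595 CPM in Z/Z, with overlapping groups (0.13, SE 0.19, adjusted p = 0.785). Fgf2 overlapped too, at 130 and 92.8 CPM against 81.1 and 123 CPM (−0.15, adjusted p = 0.792). Fgf18, Fgfr2 and Fgfr3 gave differences of −0.26 to 0.45, and Fgf21, with 2 to 7 UMIs per library, was filtered out.

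Shares of fibroblasts with a UMI differed in the same directions as the sums. Thinned to 2000 UMIs, 4.92% and 4.23% of WT and 11.3% and 14.5% of Z/Z fibroblasts had an Fgf7 UMI, against 22.4% and 22.8% and 32.6% and 37.7% without thinning. An Fgf10 UMI was found in 16.3% and 19.6% of thinned WT fibroblasts against 27.4% and 35.2% of Z/Z fibroblasts, and for Fgf1 these shares were 12.6% and 12.2% against 4.77% and 4.83%. In thinned TECs the share with an Fgf7 UMI was 0 to 0.135% and the share with an Fgf10 UMI 0.104% to 3.81%.

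The shares of fibroblast clusters differed between libraries, so the clusters with at least 20 cells in every library were also compared one by one. Inmt Penk cells, the cluster with the most Fgf10, were 12.4% and 11.6% of WT fibroblasts and 25.7% and 45.9% of Z/Z fibroblasts. Pi16 Opcml cells were 25.8% and 15.9% against 17.0% and 25.6%, and Ptn Pde7b cells 45.6% and 59.3% against 49.7% and 22.6%. Pi16 is known as a marker of adventitial, broadly distributed fibroblasts. Inmt Penk cells held 35.2% and 25.0% of the Fgf7 UMIs of WT fibroblasts and 55.3% and 62.8% of those of Z/Z fibroblasts.

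In Pi16 Opcml fibroblasts Fgf7 and Fgf10 rose, 2 of 7 genes tested beside 3.41% of all 10606 (2.17% higher, 1.24% lower). Fgf7 stood at 40.8 and 40.7 CPM in WT and at 135 and 109 CPM in Z/Z (1.58, SE 0.21, adjusted p = 0.00753), and passed under all 11 alternatives. Fgf10 stood at 99.7 and 122 CPM in WT and at 215 and 230 CPM in Z/Z (1.04, SE 0.18, adjusted p = 0.0239). The groups did not overlap for either gene, as for 26.0% of all genes with Z/Z above. A second round of clustering, run on fibroblasts alone, divided this cluster unevenly between genotypes: its Igfbp5 Sbsn cells were 81.2% and 63.3% in WT but 23.5% and 18.8% in Z/Z, and its Hp Ptx3 cells 17.5% and 33.3% against 74.5% and 77.4%. In libraries with at least 20 such cells, Fgf7 stood at 33.2 CPM (WT 1) against 60.1 and 53.8 CPM (Z/Z) in the Igfbp5 Sbsn cells and at 95.3 CPM (WT 1) against 158 and 118 CPM (Z/Z) in the Hp Ptx3 cells, with no test. Fgf10 stood at 105 CPM against 167 and 275 CPM in the former and at 83.8 CPM against 217 and 209 CPM in the latter. The Fgf10 call was lost without WT 1 (0.87, adjusted p = 0.0712), with cells thinned (adjusted p = 0.0565) and with shared barcodes left out (adjusted p = 0.0547). Fgf2, for which this cluster is the main source, stood at 362 and 328 CPM in WT and at 261 and 306 CPM in Z/Z (−0.29, SE 0.16, adjusted p = 0.396), with both Z/Z libraries below as for 24.7% of genes.

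**Figure D4:**
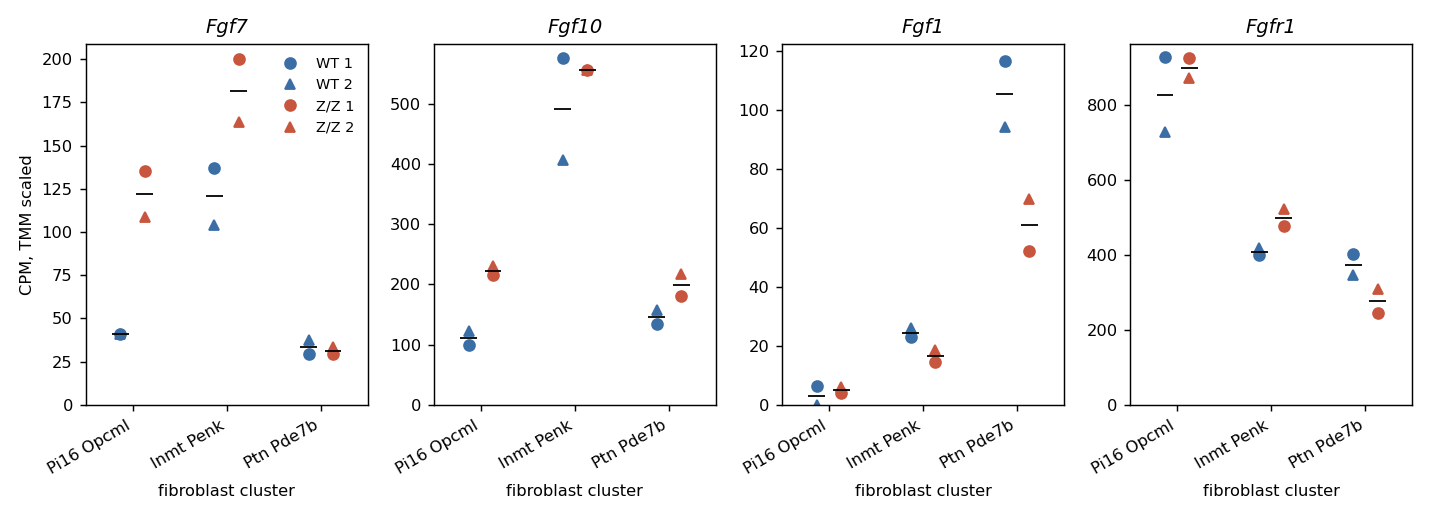
CPM, with TMM scaling, of Fgf7, Fgf10, Fgf1 and Fgfr1 in 3 fibroblast clusters, 1 point per library (blue WT, red Z/Z), with a bar at the mean of each pair. In Pi16 Opcml cells both Z/Z points of Fgf7, at 135 and 109 CPM, lie above both WT points at 40.8 and 40.7 CPM, while in Ptn Pde7b cells the Fgf7 points overlap.

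In Inmt Penk fibroblasts none of the 7 genes tested passed the threshold, beside 1.63% of all 10463 (0.937% higher, 0.698% lower). Fgf7 stood at 137 and 104 CPM in WT and at 200 and 164 CPM in Z/Z (0.54, SE 0.22, adjusted p = 0.277), with both Z/Z libraries above as for 24.1% of genes. Fgf10 stood at 575 and 406 CPM in WT and at 556 and 556 CPM in Z/Z (0.16, SE 0.21, adjusted p = 0.782), with overlap. Fgfr2 stood at 136 and 104 CPM in WT and at 88.0 and 78.4 CPM in Z/Z (−0.58, SE 0.21, adjusted p = 0.227), below as for 22.7% of genes. Fgf7 and Fgfr2 were the 2 genes with an unadjusted p under 0.05, and with DESeq2 0 genes passed the adjusted threshold.

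In Ptn Pde7b fibroblasts Fgfr4 fell, 1 of 7 genes tested beside 3.82% of all 11422 (1.76% higher, 2.06% lower). It stood at 10.4 and 12.8 CPM in WT, from 38 and 20 UMIs, and at 1.03 and 0 CPM in Z/Z, from 5 and 0 UMIs (−3.82, SE 0.66, adjusted p = 0.0108). Without WT 1 it did not pass (adjusted p = 0.0568). This cluster held 92.7% and 95.2% of the Fgfr4 UMIs of WT fibroblasts. The second round divided it almost wholly by genotype: Csf2rb Cpne4 cells were 78.7% and 68.8% of it in WT and 0.697% and 6.10% in Z/Z, while Cxcl10 Gm13889 cells were 2.21% and 2.68% against 48.8% and 42.1%, and Wdr95 Gm26802 cells 3.31% and 8.93% against 44.9% and 42.7%. None of its second-round groups had 20 cells in libraries of both genotypes, so the Fgfr4 difference compares WT with Z/Z cells that clustered apart, and genotype and cell state cannot be told apart in it. Fgf1 stood at 117 and 94.4 CPM in WT and at 52.2 and 70.0 CPM in Z/Z (−0.83, SE 0.21, adjusted p = 0.0612). For both genes the Z/Z libraries lay below, as for 24.2% of genes, and for Fgf10 they lay above, as for 24.5%. Fgf10 stood at 134 and 157 CPM against 181 and 218 CPM (0.45, adjusted p = 0.226), and Fgf7 at 29.3 and 37.6 CPM against 29.5 and 33.2 CPM (−0.09, SE 0.24, adjusted p = 0.909). Whether the difference in Fgf7 is larger in 1 cluster than in another was not tested. Pericyte markers moved with the genotype in this cluster, with the 5 markers, none at 0, summing to 394 and 502 CPM in WT and 1048 and 897 CPM in Z/Z, and their part in these values was not tested.

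In endothelial cells none of the 4 genes tested passed the threshold, by edgeR or by DESeq2, none had an unadjusted p under 0.05, and 1.96% of all 11360 genes passed (0.977% higher, 0.986% lower). Fgfr3, which was highest in arterial cells, stood at 25.3 and 51.5 CPM in WT and at 18.8 and 20.1 CPM in Z/Z (−0.72, SE 0.39, adjusted p = 0.349), from 10 to 96 UMIs per library, and both Z/Z libraries lay below as for 23.7% of genes (29.4% had both above). Fgfr2 stood at 123 and 108 CPM in WT and at 107 and 97.5 CPM in Z/Z (−0.21, SE 0.22, adjusted p = 0.647). Fgfr1 and Fgf1 gave differences of 0.10 and 0.45 with overlapping groups. The WT 2 sum came from 25 cells. vSMCs and pericytes had 8 or fewer cells in at least 1 WT library and were not tested, so vSMCs, which had the highest Fgf1 level and held 17.3% and 18.9% of its UMIs in WT and 46.2% and 42.5% in Z/Z, were not compared.

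The wider FGF pathway was read through 58 further genes in 9 lists. In TECs 52 of them were tested, of which 15 rose and 4 fell in Z/Z, beside 10.4% of all genes that rose and 12.1% that fell. The median log2 difference of the 52 was 0.48, against 0 over all genes tested. Of the heparan sulfate list, which holds the proteoglycans and enzymes that build the co-receptor sugar of FGFs, 8 of 16 rose and 2 fell. Syndecan 4, Sdc4, stood at 325 and 249 CPM in WT and at 860 and 844 CPM in Z/Z (1.57, SE 0.18, adjusted p = 0.00858). Sulf1, a sulfatase that removes 6-O-sulfate from heparan sulfate and dampens FGF signalling, stood at 183 and 184 CPM against 529 and 529 CPM (1.53, adjusted p = 0.00717). Hs2st1 and Ndst1, which add sulfate to the chain, also rose, by 1.44 (adjusted p = 0.00759) and 1.25 (adjusted p = 0.00936). Hs6st2, a 6-O-sulfotransferase, fell from 19.2 and 40.4 CPM to 1.67 and 4.63 CPM (−3.21, adjusted p = 0.0223), and the glypican gene Gpc3 fell (−1.75, adjusted p = 0.0234).

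These sums carry the same differences in TEC makeup and in fibroblast and vSMC markers as those of Fgf21 and Fgfr1. Without aaTEC2-like cells 16 pathway genes were called in place of 19, with Sulf1 at 1.25 (adjusted p = 0.0106) and with Sdc4 and Hs2st1 still higher in Z/Z at adjusted p values of 0.0109 and 0.00997. Within Aire-high cells 0 of 34 pathway genes tested passed by edgeR, with 8 at an unadjusted p under 0.05. There Sdc4 differed by 0.36 (SE 0.33, adjusted p = 0.702), Hs2st1 by 0.11 (adjusted p = 0.863), Ndst1 by 0.11 (adjusted p = 0.967), Sulf1 by 1.47 (SE 0.65, adjusted p = 0.483) and Hs6st2 by −2.15 (SE 0.63, adjusted p = 0.404).

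Among other FGF genes in TECs, Fgf16, a paracrine ligand gene of the Fgf9 subfamily, stood at 0.770 and 1.20 CPM in WT and at 4.24 and 3.88 CPM in Z/Z (2.16, SE 0.51, adjusted p = 0.0377). It did not pass under 8 of 13 alternatives, DESeq2 among them. Fgf23, an endocrine ligand gene known from bone, fell from 3.70 and 6.00 CPM to 0.471 and 0.116 CPM, from 48, 15, 9 and 2 UMIs (−3.94, adjusted p = 0.0235), and did not pass under 5 of 13. Aire-high cells, whose share of TECs was lower in Z/Z, held 47 of the 48 and 14 of the 15 WT UMIs, and within them Fgf23 differed by −1.61 (SE 1.32, adjusted p = 0.671) with overlapping groups. TECs were not its only source, since Fgf23 was among the leading genes of the venous cluster when endothelial cells were clustered alone. Fgf14, an intracellular homologous factor that binds sodium channels and not FGF receptors, fell (−3.03, SE 0.28, adjusted p = 0.00748), with 438 and 572 CPM in WT against 47.7 and 75.9 CPM. Fgf15, the other endocrine ligand gene outside the 10, stood at 1.23 and 1.20 CPM in WT and at 0 and 0.463 CPM in Z/Z (adjusted p = 0.214). Klb, the co-receptor gene for FGF21, stood at 0.400 to 3.39 CPM with overlapping groups (−0.33, adjusted p = 0.782), and 0 of the 5 genes of its list passed.

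Genes downstream of the receptors were read in 3 lists. In TECs 10.4% of all genes tested rose and 12.1% fell. Of 8 adaptors, Gab1, Plcg1, Ptpn11 and Grb2 rose, and none fell. Of 8 feedback inhibitors, Spred1 (1.09, adjusted p = 0.0206) and the ERK phosphatase gene Dusp6 (0.84, adjusted p = 0.0242) rose. None of the 3 ETS factor genes, which FGF signalling induces, passed by edgeR: Etv5 stood at 3.62 and 4.40 CPM in WT and at 11.3 and 7.99 CPM in Z/Z (1.30, adjusted p = 0.0553), Etv1 differed by 0.90 (adjusted p = 0.231) and Etv4 by 0.38 (adjusted p = 0.716). Esrp1 and Esrp2, splicing factors that favour the epithelial form of Fgfr2, differed by 0.02 (adjusted p = 0.949) and −0.46 (adjusted p = 0.328). The 19 pathway calls became 0 when all shared barcodes were left out, 5 without Z/Z 1 and 9 without Z/Z 2.

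Outside TECs few pathway genes passed, and few of all genes tested did. In fibroblasts 0 of 41 passed by edgeR, beside 3.29% of all genes, with 10 at an unadjusted p under 0.05 and 3 called by DESeq2. In endothelial cells 0 of 34 passed, beside 1.96% of all genes, with 7 at an unadjusted p under 0.05. Within Inmt Penk fibroblasts Hs6st2 (−2.04, adjusted p = 0.0472), Etv1 (−1.42, adjusted p = 0.0227) and the glypican gene Gpc4 (−1.39, adjusted p = 0.00924) fell, beside 0.698% of all genes. Etv1 there stood at 69.0 and 78.2 CPM in WT and at 28.7 and 25.0 CPM in Z/Z. In Pi16 Opcml fibroblasts Gpc6 fell from 2433 and 2390 CPM to 1183 and 1257 CPM (−0.98, adjusted p = 0.00825), beside 1.24% of all genes. In Ptn Pde7b fibroblasts Sulf1 rose from 337 and 303 CPM to 474 and 588 CPM (0.73, adjusted p = 0.0472), beside 1.76% of all genes.

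Genes with the most similar pattern across cell types were looked up for the 9 members with at least 200 UMIs, by Pearson's r of log2(mean CPM + 1) over 27 cell types and among 15083 genes. The cell types come from the same 4 libraries, so r is a description. Fgf21 was most like Adm2 (r = 0.964), Gm34586 (0.963) and Clca3b (0.955). Fgf10 was most like Gm16263 (0.942), which overlaps it on the other strand, Rspo3 (0.939) and Ifi205 (0.918), and Fgf7 most like Gpnmb (0.896), Scara5 (0.887) and Abca9 (0.874). Fgfr2 was most like Trpv3 (0.916), Zmat4 (0.914) and Mgat5b (0.912), Fgfr3 most like Notch4 (0.905), Gata2 (0.890) and Nova2 (0.880), and Fgfr1 most like Fstl1 (0.875), Ugdh (0.840) and Col3a1 (0.828). Fgf1 had Ift43 (0.812), Col4a5 (0.807) and Arhgef17 (0.804), Fgf2 had Maob (0.848), Lgi4 (0.845) and Loxl1 (0.832), and Fgf18 had Tmeff2 (0.777), Adamts2 (0.729) and Ddx3y (0.728).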

How the data were processed

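Droplet-based 3′ single-cell libraries of CD45-negative thymic cells, 2 WT and 2 Z/Z, were analysed. The deposited values are UMI counts per gene and barcode, which the authors made with Cell Ranger (version 7.01 per the submitters' processing notes, on mm10 and GRCm38.p5), as a filtered matrix of called cells and a raw matrix of all barcodes. Whether strand and intronic reads were used in counting is not stated in the sources used here, and the sources differ on the kit version.

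Called cells with over 1000 genes and under 20% mitochondrial UMIs were kept, and the 3.9% with the highest doublet scores in each library were removed. Cells were clustered with scanpy 1.11.5 (3500 variable genes, without the genes compared here, Leiden resolution 1) and named from marker lists. Fibroblast clusters are those of the first clustering round, named by leading genes, a choice made after seeing the data. A second round on fibroblasts alone is used only to describe what these clusters hold. Cluster shares can also move with genes that differ between genotypes, so they are given without a test.

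UMIs were summed per library and cell type, without ribosomal and haemoglobin genes. Sums with at least 20 cells in each library were tested in R 4.3.3 by edgeR 4.0.16 (quasi-likelihood test, TMM scaling, filterByExpr), with Benjamini-Hochberg adjustment over all genes tested and a threshold of 0.05. An exact permutation test of 2 against 2 libraries cannot go below 0.333, and none is given. The alternatives were DESeq2 1.42.0, no filter on low counts, the replicate number as a block, each library left out, cells thinned to 2000 UMIs, empty-droplet RNA subtracted, shared barcodes left out, over 500 genes per cell and no doublet removal. Leaving out aaTEC2-like cells, or only the smaller copy of a shared barcode, was added after seeing the data. On counts simulated from the real means, changes of 2 on the log2 scale were recovered for 82% of 100 genes in TECs, 90% in fibroblasts and 67% in endothelial cells, and changes of 1 for 11%, 16% and 4%. The binomial intervals, at 95%, cover counting error only.

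The 10 genes, the pathway lists and the markers were chosen with earlier results of these data known. The text names all 10 genes, pathway genes that passed the threshold or whose role bears on them, and the 3 genes with the highest r for each member. Gene positions are from the GENCODE annotation of GRCm38, and promoters from RefSeq on GRCm38.p6.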

Additional observations from a re-analysis of the deposited data

Results flagged for a closer look

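For 5 pairs of comparisons both Z/Z libraries lay on opposite sides of the WT libraries, and in none of them was the difference between the comparisons tested. Both Z/Z libraries lay above for 34.9% of all genes in TECs, 26.3% in fibroblasts and 24.1% in Inmt Penk fibroblasts. They lay below for 33.1% in TECs, 24.5% in fibroblasts, 23.7% in endothelial cells and 24.2% in Ptn Pde7b fibroblasts. The share of all genes with such an opposite pair was not counted. Fgf1 was higher in Z/Z by 0.47 on the log2 scale in TECs, where it did not pass the threshold, and fell by 1.15 in fibroblasts, a log2 fold change of −1.15. Fgf10 rose in fibroblasts by 1.07, while its value in TECs, −2.07, did not pass. Fgfr1 differed by 0.29 in Inmt Penk fibroblasts and by −0.45 in Ptn Pde7b fibroblasts, neither past the threshold. Fgfr2 differed by 0.45 in TECs, by −0.26 in fibroblasts and by −0.21 in endothelial cells, none past the threshold. The comparisons use cells of the same 4 libraries. Groups of 2 libraries are too small to test a single library for standing apart.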

How the results depend on the processing

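The Fgf7 calls in fibroblasts (1.32 to 1.67) and in Pi16 Opcml fibroblasts (1.41 to 2.76) stood under every alternative run, and those of Fgf21 (−3.00 to −2.05) and Fgfr1 (2.03 to 2.97) in TECs under all but the removal of shared barcodes. The count of the 10 genes called in TECs, 2, became 4 without a filter on low counts and 0 without shared barcodes, and ranged from 2 to 4 with 1 library left out (4 without WT 1). In fibroblasts the 4 became 2 with thinning and ranged from 1 (without Z/Z 2) to 4. In Pi16 Opcml fibroblasts the 2 became 1 with thinning and 1 without shared barcodes, and ranged from 1 (without WT 1) to 2. In Ptn Pde7b fibroblasts the 1 became 2 without a filter and with empty-droplet RNA subtracted, 0 with thinning, and ranged from 0 (without WT 1) to 2 (without Z/Z 2). In endothelial cells, Aire-high TECs and Inmt Penk fibroblasts the count was 0 under every alternative run. The 19 pathway calls in TECs became 10 with thinning and 0 without shared barcodes, and ranged from 5 to 22 with 1 library left out. The 0 in fibroblasts became 3 by DESeq2, 6 without a filter, 1 with empty-droplet RNA subtracted and 1 without shared barcodes (0 to 1 with 1 library left out). The 0 in endothelial cells became 3 without a filter, 1 with empty-droplet RNA subtracted and 1 without doublet removal (0 to 1 with 1 library left out).

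Replicate numbers did not pair the libraries. Taken as deviations from the mean of their group, and not as levels, same-numbered libraries had correlations over genes of −0.085 to 0.027. With the replicate block the pathway calls were 11 in TECs and 1 in endothelial cells, and the calls over all genes in TECs went from 1966 higher and 2276 lower to 1150 and 1465. The block turned Fgf7 in TECs to −0.02 and Fgfr4 in TECs to 0.01.

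Among genes that did not pass, several changed sign, and the cause was not tested. In TECs Fgf7 was −0.07 by DESeq2, Fgfr4 was 0.00 without a filter and 0.34 with over 500 genes per cell, Fgf2 was −1.08 without aaTEC2-like cells, and Fgf1 and Fgfr3 were −0.01 and −0.60 without shared barcodes. Without shared barcodes Fgf2 was 0.01 in fibroblasts, Fgf21 −0.55 in Aire-high TECs and Fgf7 0.06 in Ptn Pde7b fibroblasts. With thinning Fgfr1 and Fgfr2 in endothelial cells were −0.99 and 0.19, Fgf10 in Inmt Penk fibroblasts −0.10 and Fgf7 in Ptn Pde7b fibroblasts 0.32. Subtracting empty-droplet RNA turned Fgfr1 in endothelial cells to −0.10. With 1 library left out, sign changes came with ranges in TECs of −0.18 to 1.02 (Fgf2), −0.82 to 0.78 (Fgf7), −0.27 to 0.72 (Fgfr3) and −0.38 to 0.30 (Fgfr4). Fgf18 in TECs ranged from 0.00 (without WT 2) to 8.11 (without WT 1, which left a WT library with 0 UMIs, adjusted p = 0.0411), so that the value is no bound. In fibroblasts they were −0.47 to 0.15 (Fgf2), −0.05 to 0.36 (Fgfr1) and −0.57 to 0.82 (Fgfr3), in endothelial cells −0.21 to 0.25 (Fgfr1) and −0.27 to 0.01 (Fgfr2), in Inmt Penk fibroblasts −0.02 to 0.48 (Fgf10) and in Ptn Pde7b fibroblasts −0.26 to 0.07 (Fgf7). A group with 1 library left is assumed to vary like the other group. Over all genes, calls in TECs fell to 420 and 444 without Z/Z 1 and to 711 and 984 without Z/Z 2, and calls in fibroblasts went from 261 and 195 to 831 and 520 without a filter and to 79 and 52 without Z/Z 2.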

Other observations

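A cluster led by Ctnna2 and Luzp2 had 114 cells in Z/Z 1, 39 in Z/Z 2 and 0 in both WT libraries. Its best match was the list for nonmyelinating Schwann cells, whose markers averaged 0.914 of their highest level in any cluster. S100b, a marker on that list, was among its leading genes. The cluster stayed unnamed because 2 markers of the list were found in at least 20% of its cells, where 3 were required. It held 36 and 6 of the Fgfr4 UMIs of Z/Z 1 and Z/Z 2, the highest Fgfr4 level of the cell types plotted (36.9 and 21.6 CPM). Its Fgf2 level, 54.3 and 101 CPM, and its Fgfr1 level, 137 and 115 CPM, exceeded the Fgf2 level of every TEC class plotted and, for Fgfr1, that of every TEC class but aaTEC2-like cells. With cells in 1 genotype only, it allows no comparison.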
